A study of Mus musculus with 28 samples.

Results

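The Hox genes are homeobox transcription factors arranged in 4 clusters, and their chromatin was described here by 2 histone acetylation marks in mouse embryonic stem cells (mESCs). All protein-coding genes whose symbol is Hoxa, Hoxb, Hoxc or Hoxd followed by a number were taken, which gave 39 of 21896 annotated protein-coding genes: 11 in Hoxa, 10 in Hoxb, 9 in Hoxc and 9 in Hoxd. The members at the level of chromatin were the regions whose nearest protein-coding transcription start site (TSS) belonged to one of these genes and lay within 50 kb of the region centre. There were 104 such regions (26 in Hoxa, 17 in Hoxb, 30 in Hoxc and 31 in Hoxd) of 127646 in the deposited tables, of which 80007 lay within 50 kb of any protein-coding TSS. No measured value entered this choice.

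The cells carried an inducible knockout of the forkhead factor FOXD3 (FOXD3-iKO in the labels, one genotype shared by all groups, controls included), were grown in L2i medium and had a treatment time of 24 h. The study set cells depleted of FOXD3 with tamoxifen (4HT) against solvent-treated cells (EtOH) and mapped active marks by CUT&Tag, in which a transposase is tethered by antibody to marked chromatin and cuts it there. H3K27ac, an acetylated lysine of histone H3, was measured in asynchronous EtOH and 4HT cells (2 samples each). H2BK120ac, an acetylated lysine of histone H2B, was measured in groups coded ED, ET, TD and TT (3 samples each), whose codes the labels do not spell out, so that whether a letter stands for FOXD3 depletion is not known here. The series holds 28 samples, and 12 of these, sorted by phase of the cell cycle, are not analysed here. The authors merged the samples of a group into 1 column, so no spread between samples can be given, no test was possible and every comparison below is between single columns. Whether the samples of a group came from separate cultures is not given in the labels.

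Hox proteins give cells their position along the head-to-tail axis of the embryo. Low-numbered genes at one end of a cluster act towards the head and are switched on early, and high-numbered genes at the other end act towards the tail and are switched on late. In mESCs the clusters are known as the textbook case of Polycomb repression: the promoters are rich in CG dinucleotides and carry trimethylated H3K27, a modification of the same residue that carries the acetyl group of H3K27ac. Retinoic acid and Cdx factors are known to open the clusters during differentiation.

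The values are coverage scaled to the depth of the column (CPM), averaged over the covered bases of a region. The most frequent value in each column was taken as 1 fragment. That value was 0.165 in EtOH, 0.207 in 4HT, 0.445 in both ED and ET, 0.412 in TD and 0.415 in TT. It implies depths of 6.08 M fragments in EtOH, 4.82 M in 4HT, 2.25 M in ED and in ET, 2.43 M in TD and 2.41 M in TT. For H3K27ac it was also the lowest value of each column. For H2BK120ac values went down to 0.111 (ED and ET), 0.103 (TD) and 0.104 (TT), although covered bases should hold at least 1 fragment. The fragments, depths and counting intervals given for H2BK120ac therefore rest on an assumption that was not tested. Fragments given below for a region are its mean pile-up, that is, its CPM divided by the 1-fragment value. A wide region can therefore hold more fragments than its pile-up. Pluripotency genes, taken as a check of the cell type, were covered in every group (10 of 10 genes above 0, median level 1.55 CPM in EtOH and 2.02 in 4HT, and 0.768 to 1.09 across the H2BK120ac groups). Of 13 fibroblast markers, a cell type often used as feeder, 12 had a region, and their summed level was 2.35 CPM in EtOH, 1.92 in 4HT and 2.76 to 4.42 in the H2BK120ac groups. Dcn was at 0 in every group, whereas the highest of them were Col3a1 in H3K27ac (0.543 CPM in EtOH and 0.660 in 4HT) and in ED (0.631), and Lum in ET (1.16), TD (1.62) and TT (1.08). By the 2-fold rule used below, with 5 of them compared in H2BK120ac, Lum was higher in TD than in ED, Twist2 higher in TT than in ET and lower in ET than in ED, and Col3a1 and Tbx15 lower in TD than in ED and in TT than in ET. Over all genes 17.8% were called higher and 7.95% lower for TD against ED, and 15.6% and 8.48% for TT against ET. For ET against ED 4.23% were called lower. The part of fibroblast markers in the results below was not tested. The 20 regions of Foxd3 averaged 1.19 CPM in EtOH, 2.23 in 4HT, 0.967 (ED), 1.43 (ET), 0.682 (TD) and 0.908 (TT). Coverage of a mark does not measure whether the gene was deleted, so it checks no label.

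Promoter sequence was listed in RefSeq (GRCm38.p6) for 22 of the 39 genes, with 24 start sites. In the 250 bases before the start site these held a median of 12.5 CG dinucleotides (range 2 to 35) and 58.6% G and C, against 10 and 55.6% over all 21262 promoters listed. The promoter with the most CG dinucleotides of each cluster is shown, because CG content is what these promoters are known for and because the low coverage described next was measured there. CG dinucleotides are in capitals, and each runs 5′ to 3′ on the strand of its gene, from chr6:52260881-52261130 (minus), chr11:96318017-96318266 (plus), chr15:103034145-103034394 (plus) and chr2:74667975-74668224 (plus).
Hoxa13: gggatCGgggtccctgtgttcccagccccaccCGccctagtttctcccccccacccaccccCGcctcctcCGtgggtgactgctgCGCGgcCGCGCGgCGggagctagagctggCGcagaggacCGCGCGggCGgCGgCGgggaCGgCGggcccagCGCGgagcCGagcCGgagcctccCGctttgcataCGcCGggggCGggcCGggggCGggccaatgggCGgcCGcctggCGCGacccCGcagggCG
Hoxb4: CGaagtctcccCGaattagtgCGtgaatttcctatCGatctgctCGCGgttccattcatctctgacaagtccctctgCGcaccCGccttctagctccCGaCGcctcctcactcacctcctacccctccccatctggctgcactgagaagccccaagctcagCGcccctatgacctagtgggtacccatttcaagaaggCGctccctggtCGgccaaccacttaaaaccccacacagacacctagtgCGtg
Hoxc4: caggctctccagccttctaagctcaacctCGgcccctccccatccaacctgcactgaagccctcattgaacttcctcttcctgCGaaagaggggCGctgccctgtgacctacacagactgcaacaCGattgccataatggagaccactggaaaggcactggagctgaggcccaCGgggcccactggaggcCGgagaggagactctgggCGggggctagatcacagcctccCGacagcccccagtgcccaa
Hoxd13: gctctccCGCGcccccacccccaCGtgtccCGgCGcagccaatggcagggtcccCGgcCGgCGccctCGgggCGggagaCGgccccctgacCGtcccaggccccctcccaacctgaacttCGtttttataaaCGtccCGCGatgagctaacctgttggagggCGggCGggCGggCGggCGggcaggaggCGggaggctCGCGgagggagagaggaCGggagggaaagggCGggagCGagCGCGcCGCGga
The counts of CG were 35 in Hoxa13, 14 in Hoxb4, 8 in Hoxc4 and 31 in Hoxd13, the listed Hoxc4 start being the only one of its cluster. The letters TATAAA, searched on both strands, were in 4 of the 24 Hox promoters (16.7%, Hoxd13, Hoxd4, Hoxb8 and one of the Hoxa10 starts) and in 11.6% of all promoters.

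Hox promoters carried little H3K27ac in either group. Of the 37 regions within 1 kb of a Hox TSS, none reached a pile-up of 5 fragments in EtOH or in 4HT, whereas 20.5% and 20.0% of all 17996 promoter regions did. Their mean was 0.179 CPM in EtOH and 0.139 in 4HT, against 0.568 and 0.685 over all promoter regions. The highest was 0.429 in EtOH, at Hoxc5, and 0.454 in 4HT, at Hoxc13. Promoters of like or higher CG content had more: of 7345 listed promoters with a region and at least as many CG dinucleotides as the Hox median, 26.8% reached 5 fragments in EtOH, with a median of 0.447 CPM. Of the 16 listed Hox promoters with a region, whatever their CG content, none did, with a median of 0.197. In such bulk samples, fewer cells with the mark and less mark per cell cannot be told apart.

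At the promoters printed above, the highest value of any region within 1 kb was taken in each column separately. The values of Hoxa13 and Hoxc4 thus come from more than 1 region. Hoxd13 had 0.165 CPM in EtOH and 0.207 in 4HT for H3K27ac, and for H2BK120ac 0.632 (ED), 0.605 (ET), 0.412 (TD) and 0.253 (TT). Hoxa13 had 0.165, 0, 0.445, 0.445, 0.453 and 0 CPM in the same order. Hoxb4 had 0.287, 0.207, 0.445, 0, 0.412 and 0 CPM. Hoxc4 had 0.165, 0.207, 0.805, 0.450, 0 and 0 CPM. All 4 promoters therefore had a mean pile-up of 2 fragments or fewer in every column, whether they held 8 or 35 CG dinucleotides.

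**Figure D1:**
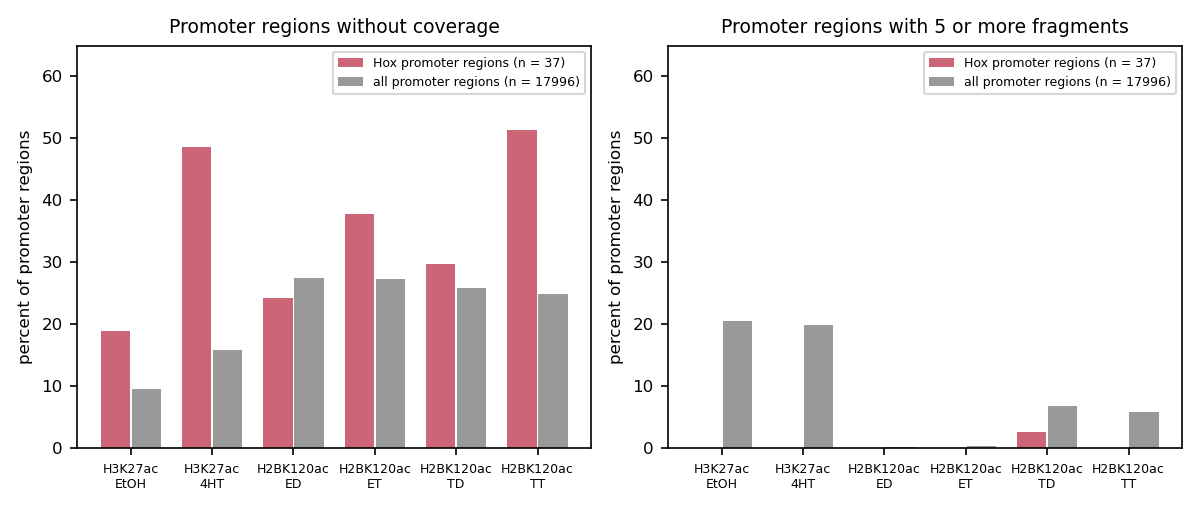
Percent of promoter regions without coverage (left) and with 5 or more fragments (right) in each group, for the 37 Hox promoter regions and all 17996 promoter regions. In EtOH and 4HT the Hox bar on the right is at 0 beside 20.5% and 20.0%, and on the left the Hox bar is higher than that of all promoters in 5 of the 6 groups.

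The share of Hox promoter regions without any H3K27ac fragment was 18.9% in EtOH and 48.6% in 4HT, against 9.65% and 15.9% over all promoter regions. The depth implied for 4HT was lower than that for EtOH, and its part in this difference was not tested. For H2BK120ac the share was 24.3% (ED), 37.8% (ET), 29.7% (TD) and 51.4% (TT), against 27.4%, 27.3%, 25.8% and 24.9% over all promoter regions. ED, where the Hox share lay below that of all promoters, was the exception among the 6 groups.

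Over all 104 Hox regions, 3 reached 5 fragments in EtOH (2.88%) and 2 in 4HT (1.92%), against 11.3% and 10.7% of all regions. All of them were distal, that is, over 1 kb from a TSS. At the level of genes, the mean over a gene's regions had a median of 0.183 CPM in EtOH and 0.130 in 4HT over the 36 Hox genes with a region, against 0.281 and 0.298 over 17686 genes. The Hox gene lay below the median of all genes in 26 of 36 cases in EtOH and 32 of 36 in 4HT. For H2BK120ac it lay below in 19 of 36 in ED and 23 in ET, with 19 in TD and 24 in TT. Hoxa6, Hoxb1 and Hoxb6 had no region and are not among these 36.

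**Figure D2:**
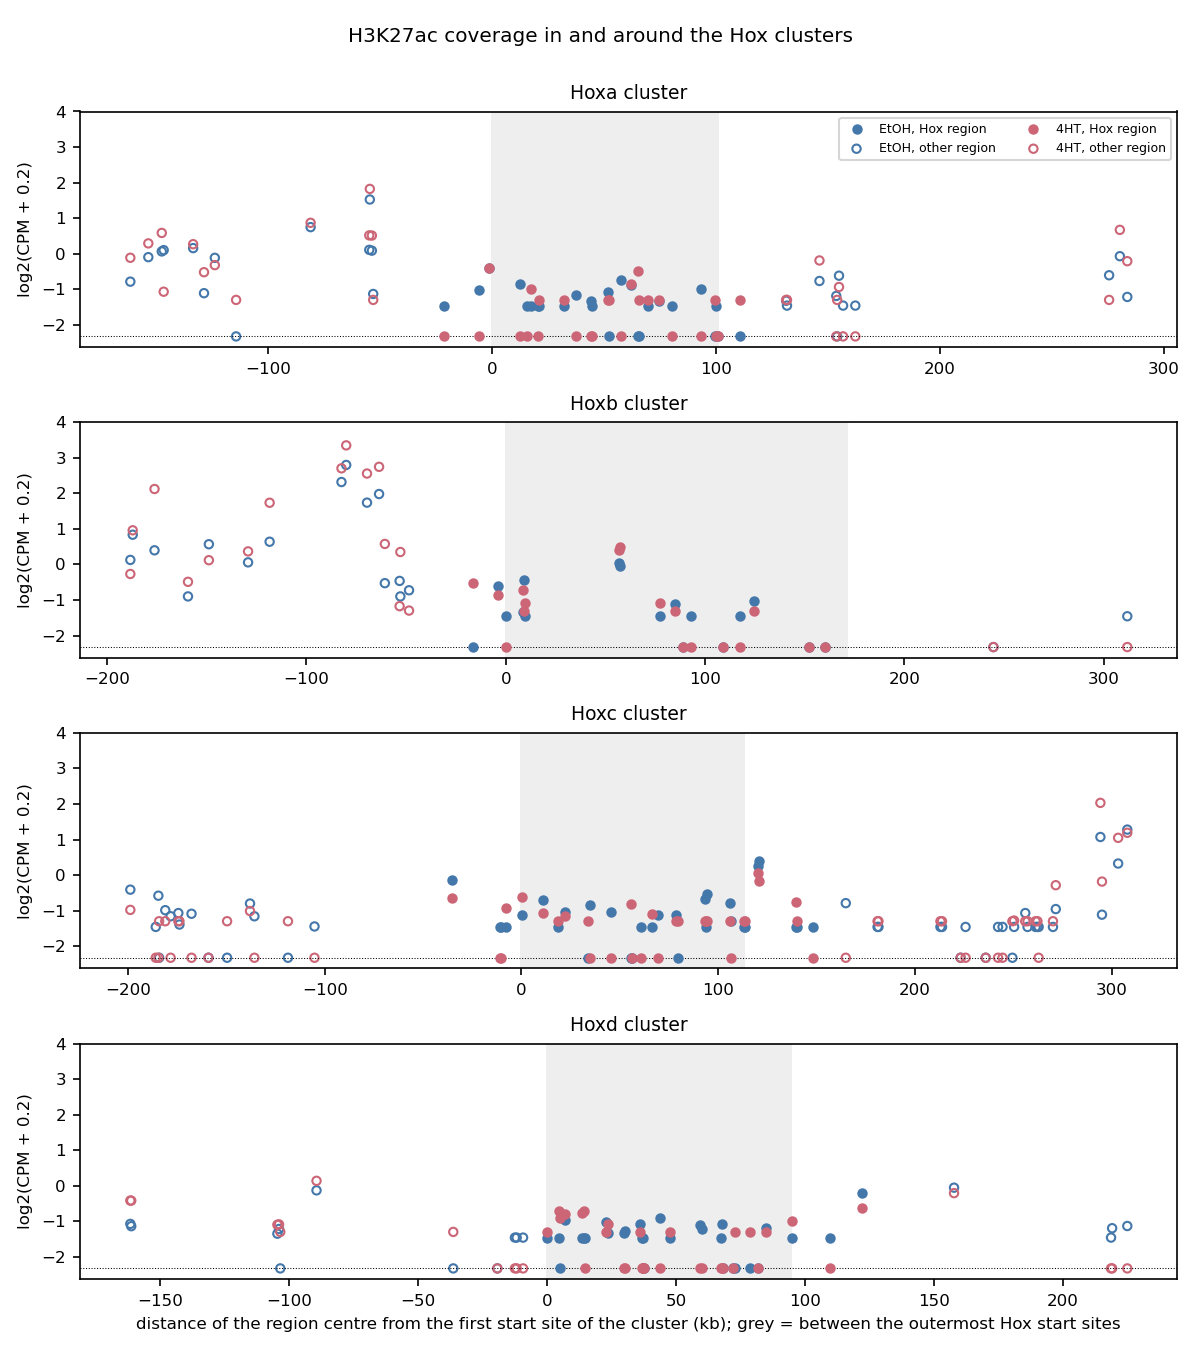
H3K27ac coverage, as log2(CPM + 0.2), of every region in the 4 clusters and 200 kb to either side, against distance from the first start site of the cluster in kb. Filled points are Hox regions, open points other regions, the grey band lies between the outermost Hox start sites and the dotted line is no coverage. Coverage inside the bands is low, and the highest points lie outside, as to the left of Hoxb.

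Beside 3 of the clusters, to the left of Hoxa and Hoxb and to the right of Hoxc, there were regions that reached 5 fragments of H3K27ac. In 4HT, but not in EtOH, 1 region to the right of Hoxa did so too. Between the outermost start sites of the 4 clusters there were 81 regions, of which 1 reached 5 fragments in EtOH (1.23%) and 2 in 4HT (2.47%). Within 200 kb outside them there were 117 regions, of which 22 (18.8%) did in EtOH and 19 (16.2%) in 4HT. To the left of Hoxb, 10 of 18 flanking regions reached it in EtOH, the nearest of them 63.6 kb away in Ttll6, a tubulin-modifying enzyme gene, with 3.75 CPM in EtOH and 6.50 in 4HT. To the left of Hoxa, 7 of 16 flanking regions did, the nearest in the long noncoding RNA gene Halr1. To the right of Hoxc, 5 of 30 did, and the nearest of all these was one of them, a member 6924 bp from the TSS of Hoxc4. No flanking region of Hoxd, on either side, reached 5 fragments of H3K27ac, and the nearest that did were 776 kb away at Atf2 and 870 kb away at Gm50595.

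The Halr1 regions lay just beyond the limit of 50 kb, beside the Hoxa cluster, and are not members. The strongest of these 4 regions, chr6:52105337-52105567, had 2.68 CPM in EtOH, 3.34 in 4HT, 1.41 (ED), 1.04 (ET), 0.657 (TD) and 0 (TT). The only other region with a Hox gene as its nearest and a greater distance was 51.6 kb from Hoxc4, with 0.379 CPM in EtOH and 0 in 4HT. The farthest members were 35132 bp from Hoxc13 and 34934 bp from Hoxc4, so no member lay near the limit.

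In the Hoxa cluster 26 regions averaged 0.185 CPM of H3K27ac in EtOH and 0.138 in 4HT. Coverage in all 6 groups was found for 18 of the 104 Hox regions (17.3%) and 22.9% of all regions. At the tail end the promoter region nearest the TSS of Hoxa13 (118 bp, chr6:52260754-52261242) had no H3K27ac fragment in either group, and 0.111, 0.445, 0.453 and 0 CPM of H2BK120ac in ED, ET, TD and TT.

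In the Hoxb cluster 17 regions averaged 0.244 CPM of H3K27ac in EtOH and 0.280 in 4HT. The 2 highest lay close together between Hoxb13 and Hoxb9, 19783 and 20219 bp upstream of Hoxb9, outside any annotated gene. They had 0.767 CPM in EtOH and 1.21 in 4HT (chr11:96251472-96251622), and 0.829 in EtOH and 1.12 in 4HT (chr11:96250982-96251241). Beside the tail-end gene Hoxb13, a region 3926 bp from its TSS (chr11:96190191-96190590) had 0.452 and 0.354 CPM and one 9090 bp away (chr11:96203226-96203586) had 0.533 and 0.207. The region at the TSS of Hoxb13 (44 bp, chr11:96194133-96194411) had 0.165 CPM in EtOH and 0 in 4HT, a pile-up of 1 fragment and none.

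In the Hoxc cluster 30 regions averaged 0.281 CPM of H3K27ac in EtOH and 0.221 in 4HT. The 2 highest lay 6924 and 7636 bp beyond the TSS of Hoxc4, the gene at the head end, within the noncoding gene Gm30528. They had 1.001 CPM in EtOH and 0.837 in 4HT (chr15:103041199-103041439), and 1.11 in EtOH and 0.694 in 4HT (chr15:103041531-103042531). The member farthest from a TSS, beyond Hoxc13 at the tail end (chr15:102885822-102886176), had 0.703 CPM in EtOH and 0.442 in 4HT. The region over the TSS of Hoxc13 itself (264 bp, chr15:102920602-102922188), the widest of all members at 1587 bp, had 0.264 and 0.454. In EtOH the 3 highest regions thus lay beyond the ends of the gene row, whereas in 4HT the third was the TSS region of Hoxc13.

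In the Hoxd cluster 31 regions averaged 0.172 CPM of H3K27ac in EtOH and 0.142 in 4HT, and none inside the row of start sites exceeded 0.329 in EtOH or 0.415 in 4HT. The highest lay 27274 bp beyond Hoxd1 (chr2:74790123-74790385), outside any annotated gene, with 0.661 CPM in EtOH and 0.449 in 4HT. The region over the TSS of Hoxd13 (5 bp, chr2:74667638-74668803) had 0.165 CPM in EtOH and 0.207 in 4HT, a mean pile-up of 1 fragment in each.

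**Figure D3:**
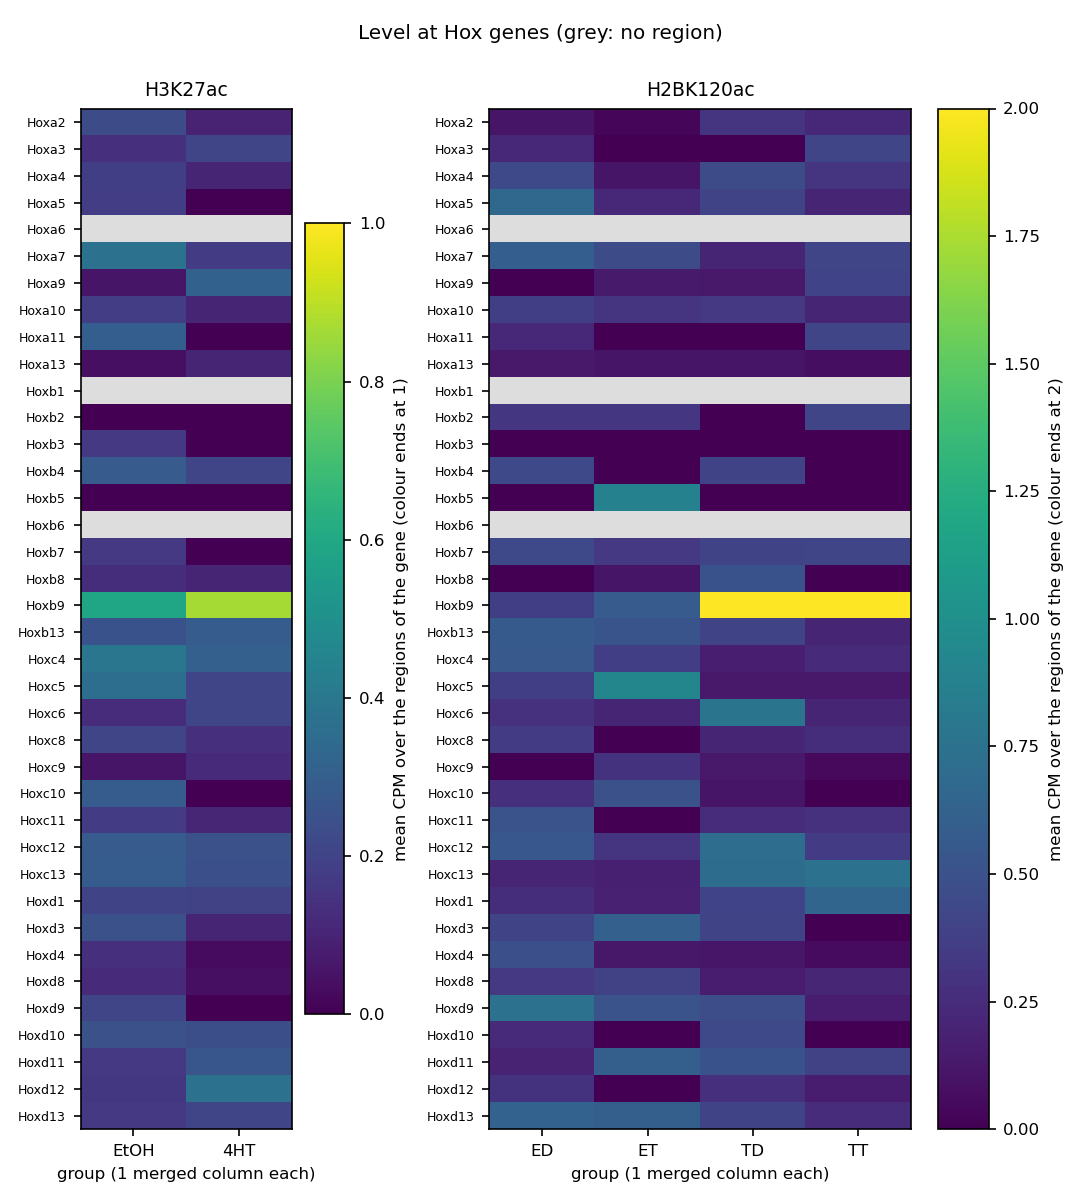
Mean CPM over all regions within 50 kb of each Hox gene shown, by group, for H3K27ac (left, colour scale to 1) and H2BK120ac (right, colour scale to 2). Hoxb9 stands out in EtOH, 4HT, TD and TT (its TD value of 3.89 and TT value of 2.39 are past the end of the scale), and Hoxa6, Hoxb1 and Hoxb6 have no region.

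Between 4HT and EtOH, the comparison that addresses FOXD3 depletion, Hox genes showed little difference in H3K27ac that the coverage could resolve. Folds were taken on log2(CPM + 0.2) over regions whose mean reached 0.2 CPM, which kept 39 Hox regions of 21 genes. A fold on this scale understates the difference of low regions. Of these 21 genes, 1 was at least 2-fold higher in 4HT and 0 at least 2-fold lower, against 2.14% and 0.900% of 14889 genes. The one was Hoxa9, from a single region (chr6:52225168-52225318) listed at 0.516 CPM in 4HT and without coverage in EtOH. The median log2 fold was 0.00 over the 21 Hox genes and 0.16 over all genes.

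The 4 Hox regions with at least 5 fragments in the mean of EtOH and 4HT were those beside Hoxb9 and Hoxc4. The ratio of 4HT to EtOH was 1.57 (95% counting interval 0.384 to 6.26) and 1.35 (0.290 to 5.47) at the Hoxb9 pair, and 0.836 (0.174 to 3.54) and 0.625 (0.0901 to 2.37) at the Hoxc4 pair. None passed 2-fold, against 7.00% of well-covered regions higher and 0.898% lower. These exact Clopper-Pearson intervals cover counting error only, not the spread between samples, and neighbouring regions can share a fragment. They take pile-ups, rounded to whole numbers, as counts, although a pile-up is not a count of fragments. All 4 intervals contain 1, so a difference was not detectable at this depth.

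Summed over members, the direction depended on how regions without coverage were counted. With these at 0, the mean over the 104 Hox regions in 4HT was 0.853 times that in EtOH (0.653 to 1.12), while over all regions within 50 kb of a TSS the ratio was 1.19, above this interval. For the 37 promoter regions the ratio was 0.778 (0.458 to 1.33), against 1.21 over all promoter regions, which lies within that interval. Over covered regions alone, 59 Hox regions in 4HT and 81 in EtOH, the ratio was 1.17, against 1.32 over all covered regions within 50 kb. For covered promoter regions it was 1.23 (19 Hox regions in 4HT and 30 in EtOH), against 1.29. The Hox ratio was below that of all regions either way, but lay on different sides of 1. By cluster, with uncovered regions at 0, the ratio was 0.747 (0.381 to 1.39) in Hoxa, 1.15 (0.629 to 2.13) in Hoxb, 0.784 (0.492 to 1.25) in Hoxc and 0.830 (0.453 to 1.48) in Hoxd. The 4 intervals overlap each other, and differences between clusters were not resolved.

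H2BK120ac at Hox regions was thin in all 4 groups, apart from a few places. The 104 regions averaged 0.354 CPM (ED), 0.290 (ET), 0.407 (TD) and 0.325 (TT), against 0.429, 0.451, 0.435 and 0.417 over all regions. None reached 5 fragments in ED or ET, 3 did in TD (2.88%) and 2 in TT (1.92%), against 1.86%, 2.22%, 3.55% and 3.08% of all regions. The 3 in TD were the pair beside Hoxb9 and the TSS region of Hoxc13, and the 2 in TT were one of the Hoxb9 pair and the region beyond Hoxd1.

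**Figure D4:**
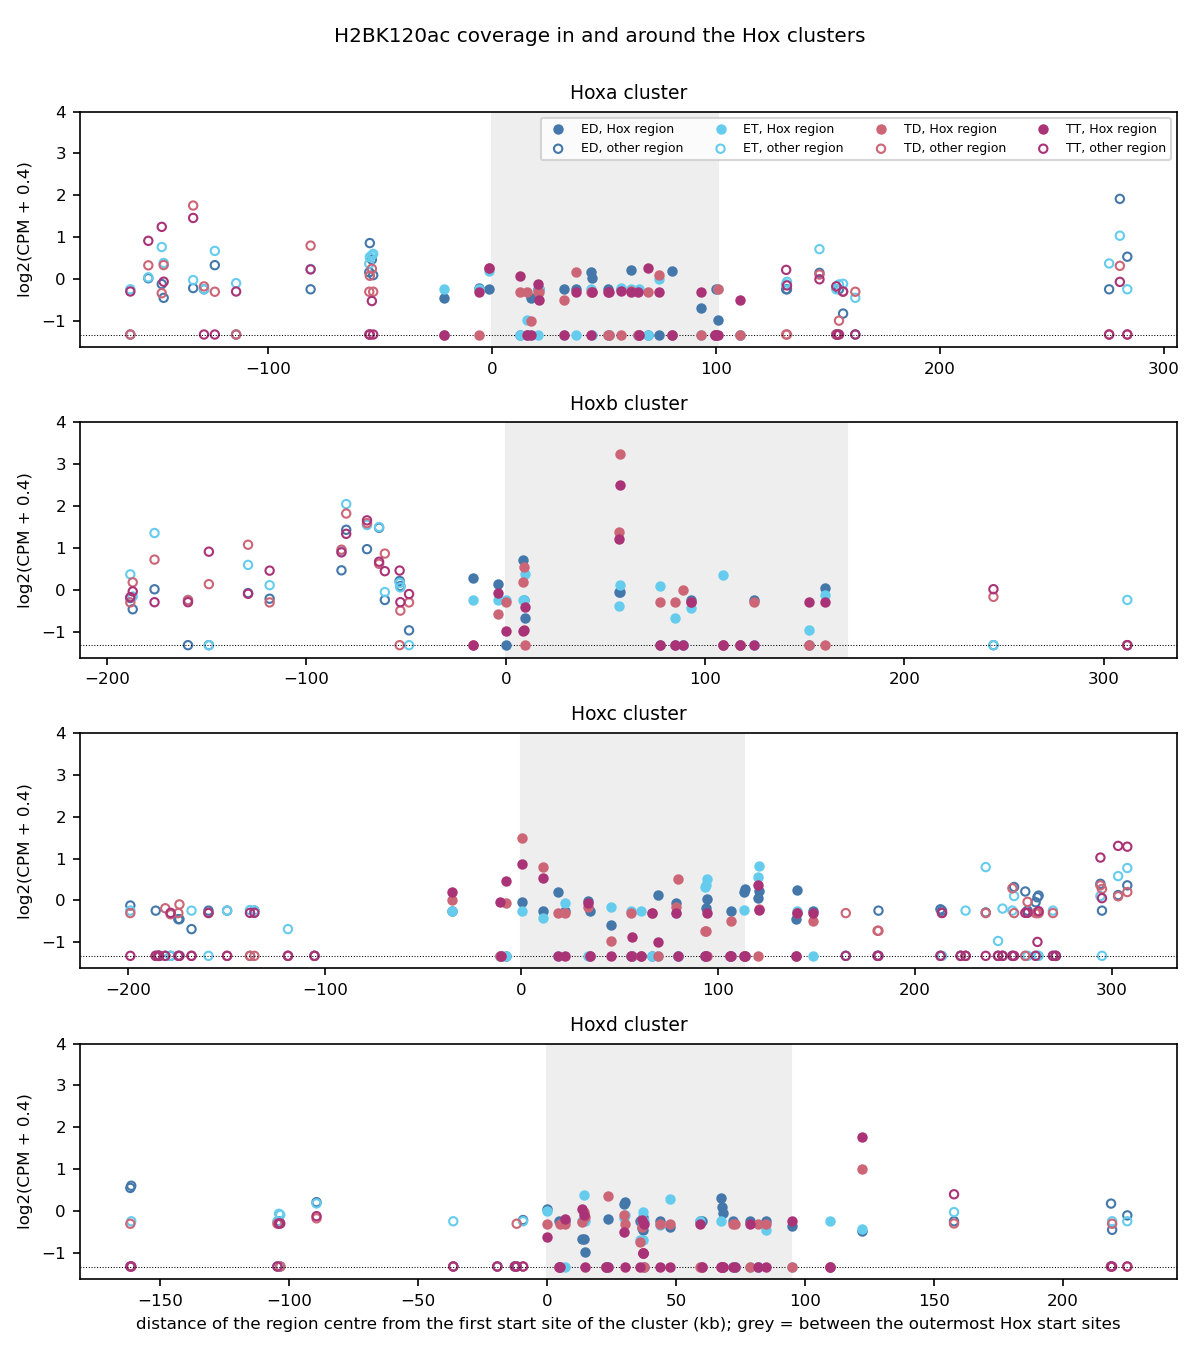
H2BK120ac coverage, as log2(CPM + 0.4), in ED, ET, TD and TT for the same regions, laid out by distance in kb as for H3K27ac. Inside the grey bands the TD and TT points stand clear of the rest at the Hoxb9 pair and, in Hoxc, at the Hoxc13 end, and beyond the band of Hoxd at the region 27274 bp from Hoxd1.

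The strongest Hox region in H2BK120ac was the narrower of the pair upstream of Hoxb9, a gene known for patterning the thoracic ribs. It had 0.559 CPM in ED and 0.689 in ET, with 9.07 in TD and 5.25 in TT, or a pile-up of 22 fragments in TD and 12.7 in TT. TD was 16.2 times ED (3.29 to 840) and TT 7.61 times ET (1.37 to 55.2). It was picked as the highest in these same columns and had a pile-up of only 1.26 fragments in ED and 1.55 in ET. These ratios and intervals are therefore a description and no support for a difference. It was the only Hox region with 5 fragments in the mean of either pair of columns, and of all regions with such coverage 56.6% passed 2-fold upwards for TD against ED (17.4% downwards) and 48.1% for TT against ET (23.4% downwards). TT was 0.578 times TD (0.276 to 1.24), an interval that contains 1.

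The other region of the pair, on the side of Hoxb13, had 0.561 CPM (ED), 0.363 (ET), 2.19 (TD) and 1.92 (TT). Its ratios, 3.91 for TD to ED (0.518 to 219) and 5.29 for TT to ET (0.521 to 220), have intervals that contain 1. Both regions of the pair were thus higher in TD and TT than in ED and ET, but both were picked for their mean over these same columns. As given above, the pair were also the strongest Hox regions of H3K27ac averaged over EtOH and 4HT. The TSS region of Hoxb9 itself (415 bp, chr11:96271511-96271980) had 0 CPM in ED and 0.659 in ET, with 0.412 in TD and 0 in TT.

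At the tail end of Hoxc, the TSS region of Hoxc13, a gene known for its role in hair and nails, had 0.580 CPM (ED), 0.445 (ET), 2.39 (TD) and 1.41 (TT). The ratio of TD to ED was 4.12 (0.673 to 255) and that of TT to ET 3.17 (0.224 to 147), and both intervals contain 1. A region 4999 bp upstream of Hoxc12 (chr15:102931534-102932120) had 0.445, 0.348, 1.33 and 1.05 CPM. In both, TD and TT were above ED and ET. Both were picked for their mean over these same 4 columns, so this order is a description and no support for a difference.

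The region beyond Hoxd1 had 0.316 CPM in ED and 0.342 in ET, with 1.59 in TD and 3.04 in TT. The ratio of TD to ED was 5.05 (0.366 to 182), that of TT to ET 8.87 (0.837 to 294) and that of TT to TD 1.91 (0.448 to 8.21). TD and TT were the higher columns, but this region too was picked for its mean over these same columns. Each interval contains 1.

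Not all members followed this order. At Hoxc4 the region in Gm30528 of 103041531-103042531 had 0.776 CPM (ED), 1.36 (ET), 0.475 (TD) and 0.449 (TT), and its neighbour had 0.650, 1.07, 0 and 0.891. Beside Hoxb13 a region in the noncoding Gm30134 (chr11:96202853-96203089) had 1.23, 0.445, 0.740 and 0.104 CPM. A promoter region of Hoxd11 (137 bp, chr2:74682288-74682633), one of the limb-patterning genes of Hoxd, had 0.227, 0.908, 0.581 and 0.534. In these 4 regions the highest column was ED or ET.

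By gene, folds on log2(CPM + 0.4) were taken over the 27 Hox regions, of 19 genes, whose mean reached 0.4 CPM. Of these 19 genes, 5 were higher by 2-fold or more in TD than in ED, against 17.8% of 12271 genes, and 1 at least 2-fold lower, against 7.95%. The median log2 fold was -0.06 over the 19 and 0.10 over all genes. The 5 were Hoxa10, Hoxb9 (2.65 on the log2 scale), Hoxc12 (1.03), Hoxc13 (1.05) and Hoxd1 (1.48), and the one lower was Hoxc5. Hoxa10 was called from a region without coverage in ED and 0.663 CPM in TD, and Hoxc5 from one with 0.628 CPM in ED and none in TD, so that these folds depend on the constant added before taking logs.

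For TT against ET 3 of the 19 genes were at least 2-fold higher, against 15.6% of genes, and 1 lower, against 8.48%. The median log2 fold was -0.05 over the 19 and 0.06 over all genes. Hoxb9 (2.10) and Hoxd1 (2.21) were higher, as in TD against ED. The kept region of Hoxd1, with 0.316 CPM in ED and 0.342 in ET, passed the filter only through TD and TT. The kept regions of Hoxb9 were the pair named above for their mean over the same columns. The repeat of these calls is therefore a description and no support for a difference. Hoxc11 was called from a region without coverage in ET and 0.564 CPM in TT, and Hoxd3 was called lower from a region with 0.825 CPM in ET and none in TT. The log2 fold of Hoxc13 was 0.81 and that of Hoxc12 was 0.96 here, both short of 2-fold.

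Hox promoters did not share the difference in H2BK120ac that promoters in general showed between these groups. Over all 17996 promoter regions the mean was 0.428 CPM in ED and 0.436 in ET, with 0.715 in TD and 0.696 in TT. These means were 1.67 times as high in TD as in ED and 1.60 times as high in TT as in ET. Their median was not higher, at 0.445 in ED and in ET, 0.412 in TD and 0.415 in TT. The share that reached 5 fragments was 0.172% (ED), 0.361% (ET), 6.88% (TD) and 5.91% (TT). Hox promoters were not set against promoters of like coverage. Over the 37 Hox promoter regions it was 0.372 (ED), 0.323 (ET), 0.337 (TD) and 0.199 (TT). The ratio of TD to ED was 0.907 (0.523 to 1.53) and that of TT to ET 0.616 (0.322 to 1.17). Both intervals end below the ratio of all promoters. Leaving out the TSS region of Hoxc13 gave 0.765 and 0.517. Over covered regions alone the ratios were 0.976 for TD to ED and 0.787 for TT to ET, against 1.63 and 1.55 over all covered promoter regions.

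**Figure D5:**
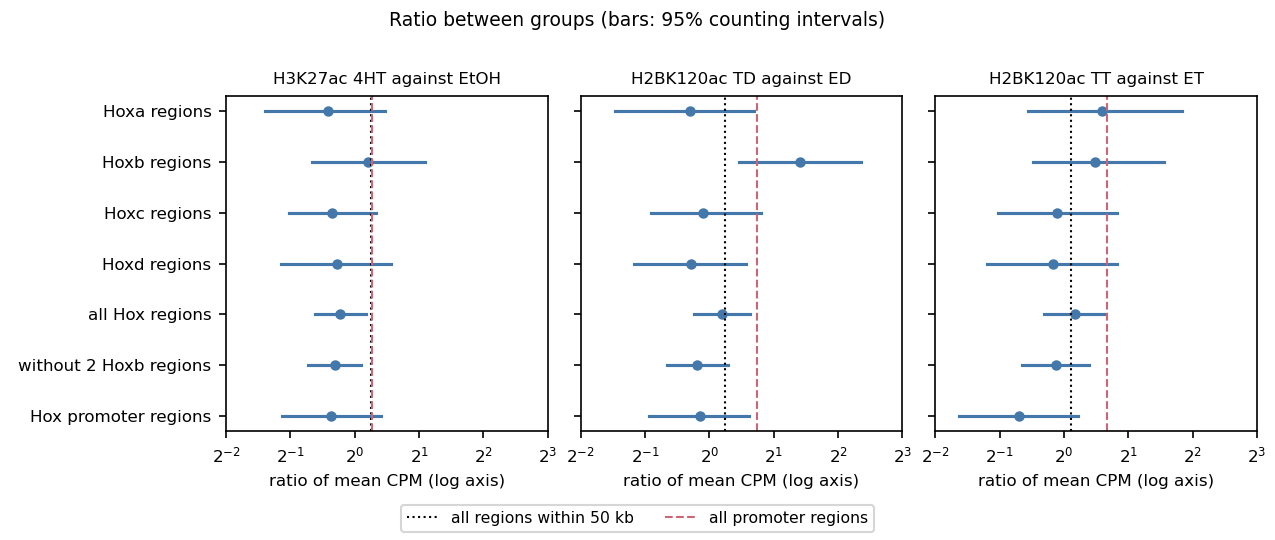
Ratio of mean CPM between groups (log axis) for the regions of each cluster, all Hox regions, all without the pair upstream of Hoxb9, and the Hox promoter regions, with 95% counting intervals as bars. The red dashed line is the ratio of all promoter regions and the black dotted line that of all regions within 50 kb. The interval of Hox promoters ends left of the red line for TD against ED (1.53 against 1.67) and for TT against ET (1.17 against 1.60).

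Over all 104 Hox regions TD was 1.15 times ED (0.851 to 1.55), and 0.872 times (0.633 to 1.22) without the pair upstream of Hoxb9. TT was 1.12 times ET (0.804 to 1.57), and 0.915 times (0.639 to 1.32) without the pair. The pair thus decided on which side of 1 both ratios lay. Over all regions within 50 kb of a TSS the ratios were 1.18 and 1.08.

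By cluster, Hoxb had 0.355 CPM in ED and 0.940 in TD, a ratio of 2.65 (1.37 to 5.14), which became 0.960 (0.364 to 2.35) without the pair. The ratio of TD to ED was 0.808 (0.362 to 1.62) in Hoxa, 0.934 (0.534 to 1.74) in Hoxc and 0.818 (0.446 to 1.49) in Hoxd. By paralogue number, genes 1 to 4 at the head end had 0.393 CPM in ED and 0.239 in TD (ratio 0.609, 0.343 to 1.06). Genes 5 to 8 had 0.350 and 0.290 (ratio 0.828, 0.366 to 1.77). Genes 9 to 13 at the tail end, where the pair belongs, had 0.319 and 0.613 (ratio 1.92, 1.23 to 3.01), and 0.308 and 0.374 without the pair (1.22, 0.728 to 2.04). For TT against ET the ratios were 1.20 (0.652 to 2.23) for genes 1 to 4, 0.521 (0.213 to 1.18) for genes 5 to 8 and 1.43 (0.886 to 2.39) for genes 9 to 13, the last becoming 0.950 (0.526 to 1.65) without the pair.

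The remaining comparisons, ET against ED and TT against TD, share their columns with those above, and the ratios are not independent of them. Over all Hox regions ET was 0.821 times ED (0.586 to 1.14) and TT 0.799 times TD (0.593 to 1.08). Over the promoter regions the ratios were 0.868 (0.501 to 1.51) and 0.590 (0.317 to 1.12). All 4 intervals contain 1, and over all promoter regions the ratios were 1.02 and 0.973. Over covered regions alone ET was 1.02 times ED for all Hox regions and 1.06 times for promoters, on the other side of 1, and TT was 0.932 and 0.852 times TD. No Hox region was well covered in ET against ED, where 6.76% of such regions were called higher and 3.27% lower. In TT against TD the stronger Hoxb9 region and the region beyond Hoxd1 were, and neither passed 2-fold, against 1.96% higher and 5.44% lower. By gene 1 of 19 was at least 2-fold higher and 1 lower in ET against ED (5.09% and 4.23% of all genes), namely Hoxa10 and Hoxc11. In TT against TD it was 1 and 1 (4.07% and 4.27%), namely Hoxc5 and Hoxd3, and each of these 4 calls had a column without coverage.

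Genes known to act with or on the Hox genes were described from the same columns, and their calls are to be read against those of all genes, given above: 17.8% higher and 7.95% lower for TD against ED, and 15.6% and 8.48% for TT against ET. Of 9 TALE homeobox genes, whose products bind DNA beside Hox proteins, 7 could be compared. None passed 2-fold in 4HT against EtOH (median log2 fold 0.38), and in TD against ED Pbx4 was higher (1.72). Pbx4 had the highest level of the list, with 2.59 CPM in EtOH, 3.64 in 4HT, 0.914 in ED and 1.10 in ET, with 3.94 in TD and 2.39 in TT. Of 17 Polycomb and trithorax genes, which keep Hox genes off or on, 16 were compared in H3K27ac and none passed 2-fold (median 0.28). Suz12, a core subunit of Polycomb repressive complex 2, had the highest level, with 2.59 CPM in EtOH and 4.10 in 4HT. In H2BK120ac 14 were compared: 2 of them, Ash2l (1.49) and Kdm6a (1.71), were higher in TD than in ED, and 1, Bmi1 (1.88), was higher in TT than in ET, both below the shares of all genes. In TT against TD, which shares the TD column with TD against ED, Kdm6a was lower (-1.39).

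Of 14 genes of the retinoic acid pathway 12 were compared in H3K27ac and none passed 2-fold (median 0.16). In H2BK120ac 10 were compared, of which 2 were higher in TD than in ED (17.8% of all genes) and 3 in TT than in ET (15.6%). Crabp1, a carrier of retinoic acid, had 0.745 CPM (ED), 1.01 (ET), 3.90 (TD) and 2.88 (TT). Cyp26b1, which degrades retinoic acid, had 0.262, 0.328, 1.15 and 1.36 CPM. Rara, a receptor, had 0.280, 0.206, 0.398 and 0.729. These levels are means over all regions of the gene, whereas the calls used kept regions only. The 6 ParaHox genes, a sister group that includes the Hox activators Cdx1, Cdx2 and Cdx4, had no call in any comparison. Their median level was 0.219 CPM in EtOH and 0.195 in 4HT, and Cdx4 was the highest at 1.07 and 1.01.

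Of 21 genes listed beside the clusters, 19 matched the annotation and 17 were compared in H3K27ac. Their median level was 0.593 CPM in EtOH and 0.654 in 4HT, against 0.183 and 0.130 for the Hox genes, and none passed 2-fold between them. In H2BK120ac 15 were compared. Hnrnpa1, a splicing factor gene to the right of Hoxc, was called higher in TD than in ED and in TT than in ET, with 0.222 CPM in ED and 0 in ET, with 1.01 in TD and 1.32 in TT. Smug1, a DNA repair gene nearer to Hoxc, had 0.378, 0.249, 0.276 and 0.127 CPM, and was lower in TT than in ET and in TD by the 2-fold rule. Atp5g3, beyond Hoxd, was called higher in TT than in ET, with 0.508 and 0.267 CPM. The levels given for Hnrnpa1, Smug1 and Atp5g3 are means over all regions of the gene. The calls used kept regions only, so these levels do not give the folds that were called.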

How the data were processed

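CUT&Tag signal was deposited by the authors as coverage per region, named CPM in the tables, with 1 merged column per group. The submitters' processing notes name mm10 and, for H3K27ac, featureCounts and DESeq2 with no role. Aligner and coverage software: not given in the sources used here. A region's mean skips uncovered bases, which raises sparse values, and a region without coverage was set to 0. A further 16 IgG columns match no sample and were not used, so background was not subtracted.

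RefSeq start sites (GRCm38.p6) came from the promoter table, or, for genes not listed there, from the span end on the strand that the cluster's genes share (Hox) or nearest a deposited 5 kb window (others). The pseudocount was the 25th percentile of positive values, 0.2 for H3K27ac and 0.4 for H2BK120ac, also the filter on the mean. A gene's fold used its kept regions. The tests planned for separate replicates could not be run on merged columns. Intervals are exact at 95% for rounded pile-ups taken as counts. The fold rule and intervals were checked on simulated independent counts, only for single regions with a mean of at least 5 fragments. Few Hox regions reach this, so the check does not cover sparse regions, folds by gene or sums over regions. Python 3.11.15, pandas 2.3.3 and scipy 1.17.1 were used.

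The members and lists were chosen with earlier results of these data known. Named are the 10 strongest Hox regions per mark, the 3 largest folds each way among well-covered regions, the region nearest the TSS of each cluster's highest-numbered gene, every Hox gene past 2-fold, and strong or called list members. The promoters printed, the TSS region of Hoxb9, the Halr1 regions and the flanks were chosen after values were seen. Alternatives covered the pseudocount, filter, scaling, distance, gene value and missing values. Some members and list genes are not reported here by name, though counts and means include them.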

Additional observations from a re-analysis of the deposited data

How the results depend on the processing

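No paired analysis was possible because the authors merged the replicates of each group into 1 column, and for the same reason the leave-out of replicates and the replicate block were not run. Counts of genes are given as higher and lower by 2-fold. For 4HT against EtOH the count of 1 higher became 0 with a pseudocount of 1, with regions within 1 kb, and with start sites taken from the deposited windows, and the count of 0 lower became 3 without the filter. For TD against ED, 5 higher became 1 with a pseudocount of 1, 2 without the filter, 3 within 10 kb and 2 within 1 kb, and 1 lower became 0 with a pseudocount of 1, without the filter and within 1 kb. For TT against ET, 1 lower became 0 with a pseudocount of 1 and within 1 kb, 4 without the filter, and 2 with the strongest region per gene and with window start sites. For ET against ED, 1 higher became 0 with a pseudocount of 1 and 2 with quantile normalization and with the strongest region, and 1 lower became 0 with a pseudocount of 1 and 2 without the filter. For TT against TD, 1 higher became 0 with a pseudocount of 1 and within 1 kb and 3 without the filter, and 1 lower became 0, 0 and 4 under the same settings and 2 with the strongest region. Median centring moved none of these counts beyond 1.5 times. With a threshold of 3 fragments the Hox regions that reached it were 9 in EtOH, 4 in 4HT, 1 in ET, 5 in TD and 4 in TT. With missing values left out, the mean over Hox regions was 0.281 CPM in EtOH, 0.329 in 4HT, 0.511 (ED), 0.521 (ET), 0.672 (TD) and 0.626 (TT), and the ratio of 4HT to EtOH became 1.17 in place of 0.853. Alternatives with other regions left out or with window start sites were added after seeing the data, and under these the ratio of Hox promoters was 0.765 without the TSS region of Hoxc13 and 0.879 with window start sites for TD against ED, and 0.517 and 0.690 for TT against ET. The cause of the other changes was not tested. In each column 87 to 103 of the 104 Hox regions have a pile-up of at most 2 fragments and 23 to 50 have none. This limits single genes to differences of several fold.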

Other observations

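Homeobox genes outside the clusters, 28 developmental regulators such as Otx2, Pax6 and Lhx2, were low in the same columns. In 4HT against EtOH 26 were compared, none passed 2-fold and the median log2 fold was -0.04, against 0.16 over all genes. Otx2, a head-patterning factor, had 0.585 CPM in EtOH and 0.727 in 4HT, the highest of the list. In TD against ED 3 of 21, Barhl1, Lhx2 and Tlx1, were at least 2-fold higher and 1, Nkx6-1, lower, against 17.8% and 7.95% of all genes. In TT against ET none was higher and 1, Emx1, was lower, against 15.6% and 8.48%. None of these counts exceeded the share of all genes.

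Markers of neuroectoderm, mesoderm and primitive endoderm were at H3K27ac levels close to those of the Hox genes. The median over 6 genes of neuroectoderm was 0.176 CPM in EtOH and 0.114 in 4HT, that over 6 genes of mesoderm 0.225 and 0.183, and that over 6 genes of primitive endoderm 0.153 and 0.100. Gata4, a primitive endoderm factor, had 0.123 CPM in EtOH and 0.154 in 4HT over all its regions, and it was called 2-fold higher in 4HT over the kept ones, against 2.14% of all genes. In H2BK120ac 4 primitive endoderm genes were compared. Of these 1, Sox17, was at least 2-fold lower in TD than in ED (-1.12 on the log2 scale), against 7.95% of all genes. Of 10 pluripotency genes 2, Klf4 and Sox2, were at least 2-fold higher in TD than in ED (17.8% of all genes), and 1, Sox2, in TT than in ET (15.6%), with 0.426 CPM in ED and 0.511 in ET, with 1.87 in TD and 1.63 in TT for Sox2.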
